A study of Mus musculus with 12 samples.

Results

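Haematopoietic stem cells of mice with a knockout of the transcription factor NFAT5 were compared with multipotent progenitors of the same animals, gene by gene. The comparison comprised 6 of the 12 arrays of the study: 1 stem cell array and 1 progenitor array from each of 3 knockout mice, numbered 2, 11 and 70. They were chosen by the genotype, the population and the mouse that the labels give, and the HSC value of a mouse was set against the MPP value of that mouse. The knockout mice (KO) were Nfat5 fl/fl Vav-Cre. In this design a Cre recombinase under the Vav promoter is meant to remove the floxed part of Nfat5 throughout the blood-forming system, thus in both populations. The 3 wild-type mice (WT, numbered 3, 12 and 64) were Nfat5 +/+ Vav-Cre and thus carried the same Cre. All mice were untreated and in steady state, and the sources used here give neither their age nor their sex. Cells came from bone marrow by flow cytometry, within the LSK compartment (no lineage markers, Sca-1 and Kit on the surface), as CD48-CD150+ cells for haematopoietic stem cells (HSC) and CD48+CD150- cells for multipotent progenitors (MPP). The labels name the study's subject as blood progenitors of the marrow in steady state. Within it, this comparison asks how stem cells and progenitors of the knockout mice differ.

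HSC sustain blood formation for life, divide rarely, and express surface receptors and adhesion molecules that tie them to the marrow niche. MPP defined by CD48 are a mixture of progenitors that divide more often and have begun to transcribe lymphoid or myeloid genes at low level, with the receptor FLT3 and the DNA polymerase terminal transferase as known signs of the lymphoid branch. NFAT5 belongs to the Rel family and is known for the response to osmotic stress, and, in immune cells, for roles in inflammatory and interferon gene expression. Each array measures a population of sorted cells, so a smaller share of cells that express a gene and less of its RNA per cell cannot be told apart. Values are log2 intensities, on which a difference of 1 is a doubling. They are set against each other only for the same gene, since probes of different genes bind with different strength.

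The samples were first checked against their labels. Nfat5 read 7.85, 7.34 and 7.89 in HSC and 6.99, 7.45 and 7.04 in MPP of KO mice 2, 11 and 70. In both populations the highest KO array lay under the lowest WT array, 7.89 against 8.27 in HSC and 7.45 against 7.82 in MPP. Converted from the difference of the log2 means, KO stood at 53.1% of WT in HSC (KO minus WT -0.91) and 54.8% in MPP (-0.87). The exact permutation p was 0.1 in each, two-sided, the smallest that 3 mice against 3 allow. The probe set's position relative to the deleted part was not analysed here, so the remaining signal does not measure how complete the deletion was. Between the populations of KO mice Nfat5 differed by 0.53 (SE 0.27, adjusted p = 0.492 by limma), with mouse 11 at -0.11 and the other two at 0.86 and 0.85, and in WT by 0.57. The genes of the sort gate followed the labels on all arrays and are no findings: Slamf1, which encodes CD150, read 7.14 to 8.71 in KO HSC and 5.35 to 5.74 in KO MPP, and Cd48 5.40 to 5.75 against 8.47 to 9.06. Kit, required on both populations, read 9.69 to 10.89 on the 6 KO arrays. The array medians of all 12 arrays lay between 5.85 and 5.95. One array stood apart, that of HSC from KO mouse 2: its deviations from the group mean had an SD of 0.4 over genes, against 0.256 to 0.348 on the other 11 arrays, so the main results are also given without that mouse.

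Among 14620 genes tested by limma with the mouse as a block, 113 passed at an adjusted p under 0.05, which is 0.773% of them. Of these 47 were higher in KO HSC (0.321%) and 66 lower (0.451%), and 1834 genes had an unadjusted p under 0.05. The median difference over all genes was 0.0512, the median size 0.215, and 57.1% of genes lay above 0. The 3 HSC and the 3 MPP values did not overlap for 2501 genes (17.1%), and for 110 of the 113; Slc6a15, Egr1 and Ikbke, whose mice differ more in level than the populations do, were the other three. The median size of the 113 differences was 1.90. Without KO mouse 2 it was 1.84, and each difference was between 0.769 and 1.22 times the full one. All 113 kept their sign, but no other outcome was possible, since all 3 KO mice of each called gene differed the same way. The calls were also chosen with mouse 2 included, which favours small changes. The number of passing genes depended much more on the number of mice: it was 20 without mouse 2, 25 without mouse 11 and 1, Dntt, without mouse 70. The count also depended on how the mouse was modelled. A fit without the block, with 8 residual degrees of freedom instead of 4, called 184 genes, 92 of them among the 113. With the mouse as a random block the count was 250. Since the degrees of freedom differ too, these counts do not measure what the pairing contributed. For 19 of the 113 the lower group mean lay under 4.96, the value below which whole genes were left out, and their differences can be understated where that signal is background.

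**Figure D1:**
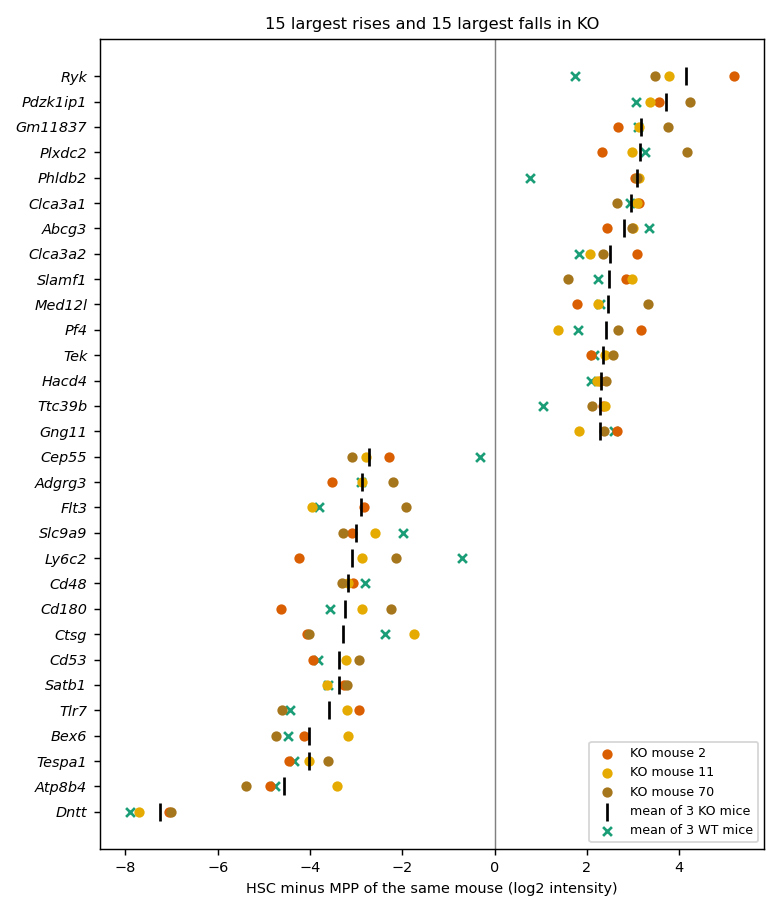
Log2 difference between HSC and MPP within each knockout mouse (horizontal axis), for the 15 largest rises and 15 largest falls that passed with arrays that do not overlap; dots are the 3 KO mice, the black tick is their mean and the cross is the mean of the 3 WT mice. For each of these genes all 3 KO mice lie on the same side of 0, from 4.15 (Ryk) to -7.26 (Dntt) in the mean.

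The strongest difference of the comparison was that of Dntt, the gene of terminal deoxynucleotidyl transferase, which adds bases at the joints of rearranging antigen receptor genes. It read 4.36, 3.60 and 4.14 in KO HSC and 11.41, 11.30 and 11.16 in KO MPP of mice 2, 11 and 70. All 3 HSC arrays lay at the low end of the scale and all 3 MPP arrays near its top, with no overlap. Dntt fell by 7.26 (SE 0.18, adjusted p = 4.75e-05 by limma), or 153-fold. Its HSC mean of 4.03 ± 0.39 (SD, n = 3) lay under 4.96, where signal may be background, so the fold may be larger. In WT mice it was -7.90. Dntt was the single gene that passed in every alternative tried.

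Some other genes of lymphoid priming fell with it. Of 26 genes on that list with a value, 25 were above the filter, and 0 rose while 6 fell (Dntt, Tespa1, Satb1, Flt3, Vpreb1 and Il7r). The list's median difference was -0.98, against 0.05 for all genes, and its medians in mice 2, 11 and 70 were -0.93, -0.81 and -1.02. The calls were 24% of the members tested, against 0.773% of all genes. In WT the median was -0.86 and 8 members passed, all lower in HSC (of all genes 1.23% passed in WT). The KO arrays of 16 members did not overlap with HSC lower (7.33% of all genes), and those of 1 with HSC higher.

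Tespa1 encodes an adaptor of T cell receptor signalling in thymocytes. It read 4.64, 5.27 and 6.39 in KO HSC and 9.10, 9.30 and 9.99 in KO MPP, and fell by 4.03 (SE 0.30, adjusted p = 0.00972 by limma). Mouse 70 was highest in both populations, so its difference of -3.60 was close to the -4.46 and -4.02 of the other mice. Satb1, a nuclear organiser of chromatin that acts early in lymphoid development, read 7.98, 7.59 and 7.96 in HSC and 11.25, 11.23 and 11.16 in MPP, and fell by 3.37 (SE 0.41, adjusted p = 0.0285 by limma). The MPP values of Satb1 were nearly equal. Flt3, the cytokine receptor whose signal supports lymphoid progenitors and dendritic cells, read 5.94, 5.09 and 6.88 in HSC and 8.78, 9.05 and 8.80 in MPP. It fell by 2.90 (SE 0.35, adjusted p = 0.0283 by limma), and mouse 70 had the smallest difference (-1.92) and mouse 11 the largest (-3.95). Vpreb1, part of the surrogate light chain of the pre-B cell receptor, fell by 2.38, with HSC at 5.54 to 6.73 and MPP at 8.07 to 8.84. Il7r, the receptor chain for interleukin 7 and for TSLP, fell by 2.32, with HSC at 4.68 to 4.90 and MPP at 6.69 to 7.85; it and Vpreb1 are named because they complete the 6 members that passed. Ebf1, a B lineage transcription factor, read -1.72 (SE 0.28) and missed the threshold (adjusted p = 0.063 by limma).

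To show regulatory sequence at both ends of the comparison, the 250 bases before the start of the gene are given for 4 of the calls, picked after their values were seen: the platelet gene Pf4 and the chloride channel accessory gene Clca3a1, which rose, and Dntt and the flippase gene Atp8b4, which fell. Coordinates are those of GRCm38.p6 and the sequences are RefSeq's, each written in the direction of its gene and ending at the last base before the start. Capitals mark letters of a motif that blood or NFAT factors are known to bind, on either strand.
Pf4 (chr5:90772185-90772434, + strand): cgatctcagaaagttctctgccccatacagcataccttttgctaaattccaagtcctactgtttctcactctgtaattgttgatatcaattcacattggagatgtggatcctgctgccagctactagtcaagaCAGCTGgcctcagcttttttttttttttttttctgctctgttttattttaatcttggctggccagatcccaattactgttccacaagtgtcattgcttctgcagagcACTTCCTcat
Clca3a1 (chr3:144760978-144761227, - strand): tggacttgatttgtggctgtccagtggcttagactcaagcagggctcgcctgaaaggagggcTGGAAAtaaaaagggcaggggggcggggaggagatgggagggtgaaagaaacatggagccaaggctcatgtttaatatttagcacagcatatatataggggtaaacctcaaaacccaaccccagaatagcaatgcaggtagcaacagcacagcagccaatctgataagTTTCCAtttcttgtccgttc
Dntt (chr19:41029025-41029274, + strand): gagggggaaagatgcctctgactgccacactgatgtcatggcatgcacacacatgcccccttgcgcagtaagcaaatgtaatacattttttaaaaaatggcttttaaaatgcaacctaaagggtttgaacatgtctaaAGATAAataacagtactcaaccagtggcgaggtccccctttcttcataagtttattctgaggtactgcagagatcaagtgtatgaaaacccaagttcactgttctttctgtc
Atp8b4 (chr2:126491554-126491803, - strand): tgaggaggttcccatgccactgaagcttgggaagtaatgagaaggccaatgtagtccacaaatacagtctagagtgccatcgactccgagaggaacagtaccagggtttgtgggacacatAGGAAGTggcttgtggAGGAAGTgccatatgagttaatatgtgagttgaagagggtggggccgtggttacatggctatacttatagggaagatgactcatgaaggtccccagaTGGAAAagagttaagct
The Pf4 window holds ACTTCCT, the reverse complement of the ETS letters AGGAAGT, 10 bases before the start, and the E-box CAGCTG. The Clca3a1 window holds 2 NFAT core matches, as TGGAAA and as its reverse complement TTTCCA, the Dntt window holds the GATA letters AGATAA, and the Atp8b4 window holds 2 ETS matches and 1 NFAT core. Such windows were found for 11788 of the 14620 genes tested, 40 of the 47 that rose and 54 of the 66 that fell. The GATA letters AGATAA stood in 12.5% of windows of genes that rose, 3.7% of those that fell and 6.99% of all. For the ETS letters AGGAAGT the shares were 5%, 13% and 7.36%, for the RUNX letters TGTGGTT 0%, 3.7% and 3.33%, and for CAGCTG 12.5%, 13% and 12%. The NFAT core TGGAAA, whose letters are shared by NFAT proteins and are common in the genome, stood in 17.5% of windows of genes that rose, in 29.6% of those that fell (16 of 54) and in 15.7% of all. No test was made of these shares. Motifs were searched on both strands, the searches do not exclude overlaps, and a match describes letters, not a bound site.

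Some receptors by which progenitors sense cytokines and microbes were lower in KO HSC. Of 34 cytokine receptor genes with a value, 29 were above the filter. Of these 0 rose, 6 fell (0.451% of all genes fell) and 23 did not pass, and 8 of the 29 lay above 0 (57.1% of all genes). The median was -0.49 in KO and -0.14 in WT. In single mice it was -0.39, -0.66 and -0.39 in KO mice 2, 11 and 70. WT mice 3, 12 and 64 gave -0.13, -0.40 and -0.36. In WT 6 members passed, all lower in HSC (of all genes 1.23% passed in WT). The 6 that fell in KO were Flt3, Il7r and the receptor genes for interleukins 1, 10, 18 and 17. Il1r1, the signalling receptor for interleukin 1, read 7.28, 7.83 and 6.83 in HSC and 9.80, 10.25 and 9.90 in MPP, and fell by 2.67 (SE 0.21, adjusted p = 0.00996 by limma). Il10rb, the chain shared by the receptors for interleukin 10 and for interferon lambda, read 5.71, 5.19 and 5.73 in HSC and 8.52, 7.72 and 8.02 in MPP, and fell by 2.54 (SE 0.16, adjusted p = 0.00754 by limma). In both genes every HSC array lay far below every MPP array. Il18r1 fell by 2.35 and Il17ra, named as the last of the 6, fell by 1.49, and their arrays did not overlap. Their WT differences were -2.58 (Il1r1), -1.78 (Il10rb), -2.07 (Il18r1) and -1.23 (Il17ra).

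Among Toll-like receptors and their accessory proteins 18 of 26 genes were above the filter, and 2 fell (0.451% of all genes fell). Tlr7, the endosomal sensor of single-stranded RNA, read 4.52, 4.22 and 4.21 in KO HSC and 7.45, 7.41 and 8.83 in KO MPP, and fell by 3.58 (SE 0.32, adjusted p = 0.0133 by limma). Its HSC values were all under 4.96 and nearly equal, and the MPP array of mouse 70 was the highest. Cd180, a Toll-like receptor homologue that lacks the TIR signalling domain, read 5.89, 6.77 and 5.35 in HSC and 10.52, 9.63 and 7.59 in MPP. It fell by 3.25 (SE 0.43, adjusted p = 0.0333 by limma), and its MPP values spread widely, with a difference of -2.25 in mouse 70 and -4.63 in mouse 2. The list's median was -0.0378, and 9 of its 18 members lay above 0. Other receptors and adhesion molecules of leukocytes fell too. The tetraspanin Cd53 read 5.52, 6.28 and 6.51 in HSC against 9.46, 9.51 and 9.44 in MPP and fell by 3.37 (SE 0.32), the tetraspanin Tspan2 fell by 2.35, and 19 of 21 tetraspanins tested did not pass. In the SLAM family Cd244a, the receptor for CD48 itself, fell by 2.52 with HSC at 5.16 to 6.24 and MPP at 7.95 to 8.26. The C-type lectin Clec2i fell by 2.47, the single one of 10 C-type lectins tested to pass (0.773% of all genes passed). The arrays of 4 of the 10 were apart with HSC lower and of 2 with HSC higher (7.33% and 9.77% of all genes). Itgal, the alpha chain of the integrin LFA-1, fell by 1.29 as the single one of 17 integrins tested to pass. H2-Ob, a chain of the MHC class II regulator H2-O, fell by 2.25 as the single one of 14 class II presentation genes. Itgal did not pass without the block (adjusted p = 0.0645 by limma).

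**Figure D2:**
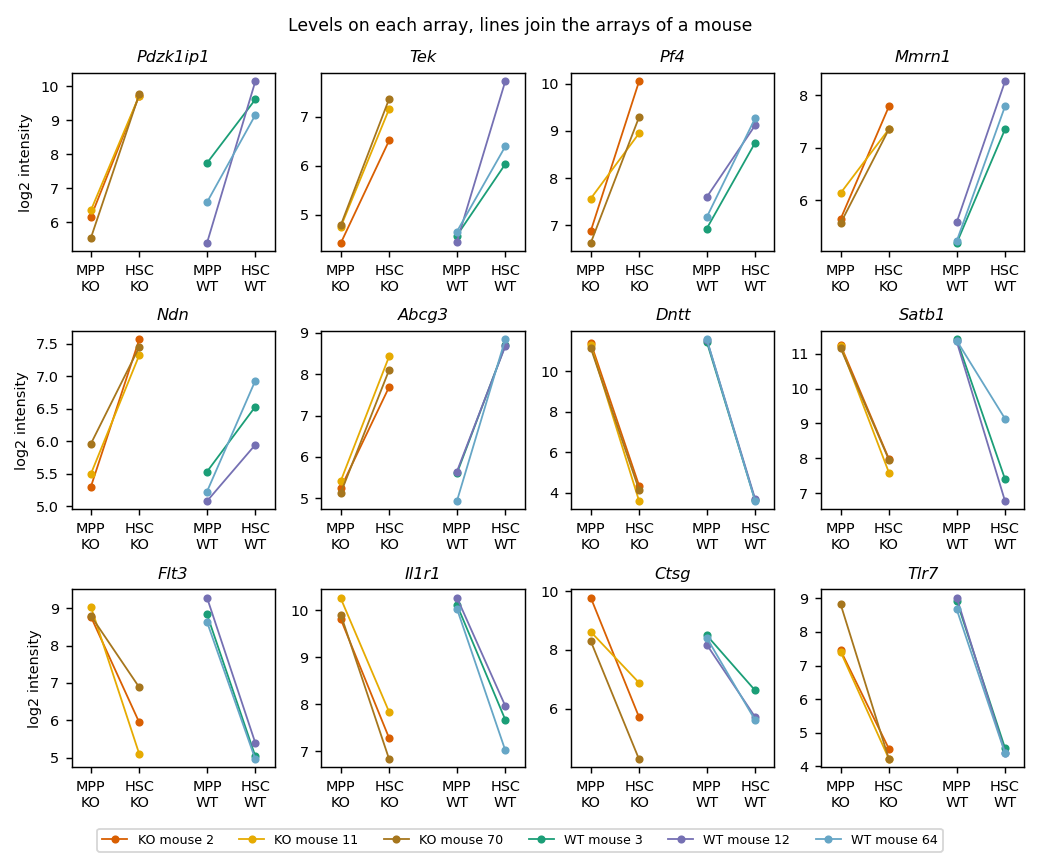
Log2 intensity (vertical axis) on the MPP and HSC arrays of knockout mice (left) and wild-type mice (right) for 12 genes that passed in knockout mice, 1 panel per gene; lines join the arrays of 1 mouse and vertical scales differ between panels. In each panel the 3 knockout lines run the same way, upward from MPP to HSC for Pdzk1ip1, Tek, Pf4, Mmrn1, Ndn and Abcg3 and downward for Dntt, Satb1, Flt3, Il1r1, Ctsg and Tlr7.

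Some myeloid genes were lower in KO HSC. Of 24 genes of myeloid progenitors and primary granules tested, 0 rose and 3 fell (0.451% of all genes fell) and 4 lay above 0. The arrays of 13 did not overlap with HSC lower (7.33% of all genes) and those of 0 with HSC higher, and the median was -0.68 (-0.68, -0.60 and -0.78 in mice 2, 11 and 70; -0.47 in WT). Ctsg, the granule protease cathepsin G, read 5.71, 6.88 and 4.28 in HSC and 9.78, 8.62 and 8.30 in MPP, and fell by 3.28 (SE 0.47, adjusted p = 0.0397 by limma). Mouse 11 had the smallest gap, -1.74, against -4.07 and -4.02 in the other two. Ly6c2, which encodes a surface protein of monocytes and their precursors, read 5.32, 5.41 and 6.61 in HSC and 9.56, 8.28 and 8.75 in MPP, and fell by 3.08 (SE 0.38, adjusted p = 0.0285 by limma). In WT the same gene read -0.71, with HSC at 7.44, 8.34 and 6.36 and MPP at 8.56, 8.76 and 6.95, and the KO HSC arrays of mice 2 and 11 lay below every WT HSC array. Its close paralog Ly6c1, named for that reason, fell by 1.72 in KO and read -0.15 in WT; the probe sets may share signal, so both count as 1 uncertain observation. Nkg7, a granule membrane protein of cytotoxic and some myeloid cells, fell by 1.64. Mpo, the myeloperoxidase gene and another member of the list named after its values were seen, read 9.38, 9.49 and 5.91 in HSC and 10.98, 10.34 and 10.55 in MPP; at -2.36 (SE 0.73, adjusted p = 0.264 by limma) it did not pass, and its HSC value in mouse 70 was far below the other two.

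Genes that rose in KO HSC were led by Ryk, an atypical receptor of Wnt ligands without kinase activity. It read 9.45, 7.93 and 7.69 in HSC and 4.26, 4.15 and 4.22 in MPP, a rise of 4.15 (SE 0.48, adjusted p = 0.0281 by limma). All MPP arrays lay at the low end of the scale, and the HSC array of mouse 2 was the highest; without mouse 2 the rise was 3.62. WT HSC read lower, at 6.38, 7.02 and 5.19, and the WT difference was 1.74. Pdzk1ip1, a small membrane protein known as a mark of stem cells, was the next. It read 9.72, 9.73 and 9.77 in HSC and 6.16, 6.35 and 5.53 in MPP, and rose by 3.73 (SE 0.51, adjusted p = 0.0364 by limma), with HSC arrays that were nearly equal.

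On the list of stem cell surface and enzyme markers 31 genes had a value and 30 were above the filter. Of these 3 rose (0.321% of all genes rose), Pdzk1ip1, Tek and the sort gene Slamf1, and 0 fell. The median was 0.81 in KO and 0.86 in WT. Arrays of 20 members did not overlap with HSC higher, against 9.77% of all genes, and of 1 member with HSC lower. Tek, the receptor TIE2 for angiopoietins, read 6.51, 7.15 and 7.36 in HSC and 4.42, 4.76 and 4.79 in MPP, and rose by 2.35 (SE 0.34, adjusted p = 0.0442 by limma). The member with HSC lower was Cd34, known to be low on long-term stem cells, at 9.42, 9.59 and 10.12 in HSC and 11.36, 11.08 and 11.20 in MPP; at -1.50 (SE 0.25) it missed the threshold (adjusted p = 0.0628 by limma). Clec1a, a C-type lectin, stood at 2.24 (SE 0.35) and just missed it (adjusted p = 0.0539 by limma). The KO median of the list was 0.57, 1.13 and 0.58 in mice 2, 11 and 70.

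Transcription regulators of stem cells gave no call in KO: of 30 tested, 0 rose and 0 fell (of all genes 0.773% passed in KO). In WT 3 of them rose and 1 fell (of all genes 1.23% passed in WT). In KO the arrays of 14 did not overlap with HSC higher (9.77% of all genes) and of 0 with HSC lower (7.33%). Of the 30, 24 lay above 0 (57.1% of all genes), and the median was 0.44 (0.40 in WT). The members nearest to the threshold were Tcf15, a basic helix-loop-helix factor of dormant stem cells, at 0.999 (SE 0.17, adjusted p = 0.0667 by limma), Mycn at 1.29, and Mecom, a zinc finger factor required for long-term stem cells, at 1.30 (SE 0.23, adjusted p = 0.0734 by limma). Mecom read 10.63, 10.82 and 10.14 in HSC and 9.57, 9.64 and 8.49 in MPP, so the populations were apart although the gene did not pass. Mllt3 differed by 2.48 with an SE of 0.46. Of 23 Hox cluster genes above the filter 0 passed (0.773% of all genes passed). The arrays of 7 were apart with HSC higher, against 9.77% of all genes, and of 1 with HSC lower, and the median was 0.20.

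Megakaryocyte and platelet genes, which stem cells of mice are known to transcribe, gave calls in both directions. Of 21 tested 2 rose and 1 fell, against 0.321% and 0.451% of all genes. The list's median was 0.50 (0.28 in WT). In single mice it was 0.61, 0.32 and 0.19 in KO mice 2, 11 and 70. WT mice 3, 12 and 64 gave 0.34, 0.58 and 0.46. The KO arrays of 10 members were apart with HSC higher (9.77% of all genes). Pf4, the platelet chemokine CXCL4, read 10.05, 8.95 and 9.29 in HSC and 6.88, 7.57 and 6.62 in MPP, and rose by 2.41 (SE 0.33, adjusted p = 0.0364 by limma). Its rise was 3.18 in mouse 2 and 1.39 in mouse 11, the arrays being apart in all. Mmrn1, the platelet granule protein multimerin, read 7.79, 7.36 and 7.35 in HSC and 5.64, 6.14 and 5.56 in MPP, and rose by 1.72 (SE 0.21, adjusted p = 0.0287 by limma). Plek, the protein kinase C substrate pleckstrin of platelets and leukocytes, went the other way, with 6.76, 7.10 and 7.28 in HSC against 8.73, 9.28 and 8.63 in MPP, and fell by 1.83 (SE 0.23, adjusted p = 0.0294 by limma). Platelet genes outside the list that rose, named after their values were seen, were P2rx1, an ATP-gated channel of platelets (1.66), and Tbxas1, thromboxane synthase (1.26; without the block Tbxas1 did not pass).

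Other large rises, all but that of Abcg3, belonged to no list. Phldb2, a protein that anchors microtubules at the cell cortex, read 7.46, 8.20 and 7.99 in HSC and 4.43, 5.06 and 4.90 in MPP, and rose by 3.09 (SE 0.25, adjusted p = 0.0100 by limma), against 0.77 in WT. Plxdc2, a transmembrane receptor with a plexin domain, read 9.85, 10.54 and 10.10 against 7.51, 7.56 and 5.93 and rose by 3.16, with 3.25 in WT. Clca3a1 read 8.22, 8.51 and 8.05 against 5.08, 5.42 and 5.39 and rose by 2.96 (SE 0.19, adjusted p = 0.00754 by limma); its near-identical neighbour Clca3a2 rose by 2.50, and hybridisation between them cannot be told apart here. The 3 HSC arrays of each of these genes lay above every MPP array. Abcg3, a transporter of the ABCG family, read 7.69, 8.43 and 8.11 against 5.25, 5.42 and 5.13 and rose by 2.81. It was the single one of 14 ABC transporters tested to pass (0.773% of all genes passed). Med12l, a paralog of the Mediator kinase module subunit MED12, rose by 2.46, the fatty acid elongation enzyme Hacd4 by 2.31, Ttc39b by 2.28 (1.06 in WT), the G protein gamma subunit Gng11 by 2.28 and the predicted gene Gm11837 by 3.19. All 15 largest rises had the same sign in WT.

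Of 16 imprinted growth regulators tested 1 rose (0.321% of all genes rose). Ndn, the maternally silenced gene of necdin, a growth suppressor, read 7.57, 7.32 and 7.45 in HSC and 5.30, 5.49 and 5.96 in MPP, and rose by 1.86 (SE 0.23, adjusted p = 0.0285 by limma). Its HSC arrays lay close together and above every MPP array. Egr1, an immediate early transcription factor known to keep stem cells quiescent, was the single one of 22 immediate early genes to pass. It read 8.91, 9.36 and 7.79 in HSC and 7.81, 8.16 and 6.43 in MPP and rose by 1.22 (SE 0.15, adjusted p = 0.0283 by limma). Its HSC and MPP values overlapped, because mouse 70 was low in both populations, and each mouse alone rose by 1.10 to 1.36. Its call therefore rested on the pairing: without the block the adjusted p was 0.401 by limma.

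The falls without a list were led by Atp8b4, a phospholipid flippase. It read 4.91, 6.40 and 4.38 in HSC and 9.78, 9.82 and 9.78 in MPP, and fell by 4.56 (SE 0.49, adjusted p = 0.0240 by limma), with MPP arrays that were nearly equal and HSC arrays that spread widely, mouse 11 being the highest. Bex6, of the Bex family, read 5.40, 6.01 and 4.49 against 9.53, 9.20 and 9.24 and fell by 4.02 (SE 0.34). Slc9a9, an endosomal sodium and proton exchanger, fell by 2.99, and the adhesion G protein-coupled receptor Adgrg3 fell by 2.86. These falls were -4.75, -4.48, -1.99 and -2.90 in WT. Among genes named after their values were seen, the apoptosis inhibitor Bcl2 read 7.43, 7.59 and 7.71 in HSC and 9.33, 9.15 and 8.98 in MPP and fell by 1.57 (-0.37 in WT). Suz12, a subunit of the Polycomb complex that methylates histone H3, fell by 1.70 (-0.67 in WT; adjusted p = 0.068 by limma without the block).

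The 3 cell cycle lists gave 1 call in KO (0.773% of all genes passed). They do not hold every gene of cell division, so this is no count of all such calls. Of 37 mitosis and cytokinesis genes tested, 0 passed and 1 lay above 0; the arrays of 20 did not overlap with HSC lower (7.33% of all genes) and of 0 with HSC higher (9.77%), and the median was -0.83 (-1.02, -0.71 and -0.77 in mice 2, 11 and 70). In WT the median was -1.07, 6 passed, all lower, and the arrays of 32 were apart with HSC lower (10.3% of all genes). The members with the lowest p in KO were Ect2, an exchange factor that drives the cleavage furrow, at -1.13 (SE 0.23), the spindle motor Kif11 at -1.23, and Prc1 and Kif23 of the central spindle, the latter at -0.88, with adjusted p of 0.11 to 0.16 by limma. Of 40 DNA replication genes 1 fell: Clspn, the checkpoint adaptor claspin, read 5.88, 5.75 and 5.50 in HSC and 7.30, 7.20 and 7.14 in MPP and fell by 1.50 (SE 0.21, adjusted p = 0.0382 by limma). The arrays of 19 replication genes were apart with HSC lower, against the same 7.33% of all genes, and the median was -0.67 (-0.82 in WT). Of 21 G1 cyclins, kinases and inhibitors 0 passed and 7 lay above 0, with a median of -0.42.

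Cep55, which recruits the scission machinery to the midbody at the end of cell division, was on no list. It read 4.07, 4.67 and 4.24 in KO HSC and 6.36, 7.46 and 7.32 in KO MPP, and fell by 2.72 (SE 0.29, adjusted p = 0.0232 by limma). WT HSC read 5.32, 7.55 and 6.48 and WT MPP 5.98, 7.06 and 7.27, so WT arrays overlapped and the WT difference was -0.32. Repair nucleases and a recombination factor also fell and are named after their values were seen: Rad51b fell by 2.60 (-1.07 in WT), Gen1 fell by 1.93 (-2.79 in WT) and Exo1 fell by 1.42 (-1.59 in WT; Exo1 did not pass without the block).

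**Figure D3:**
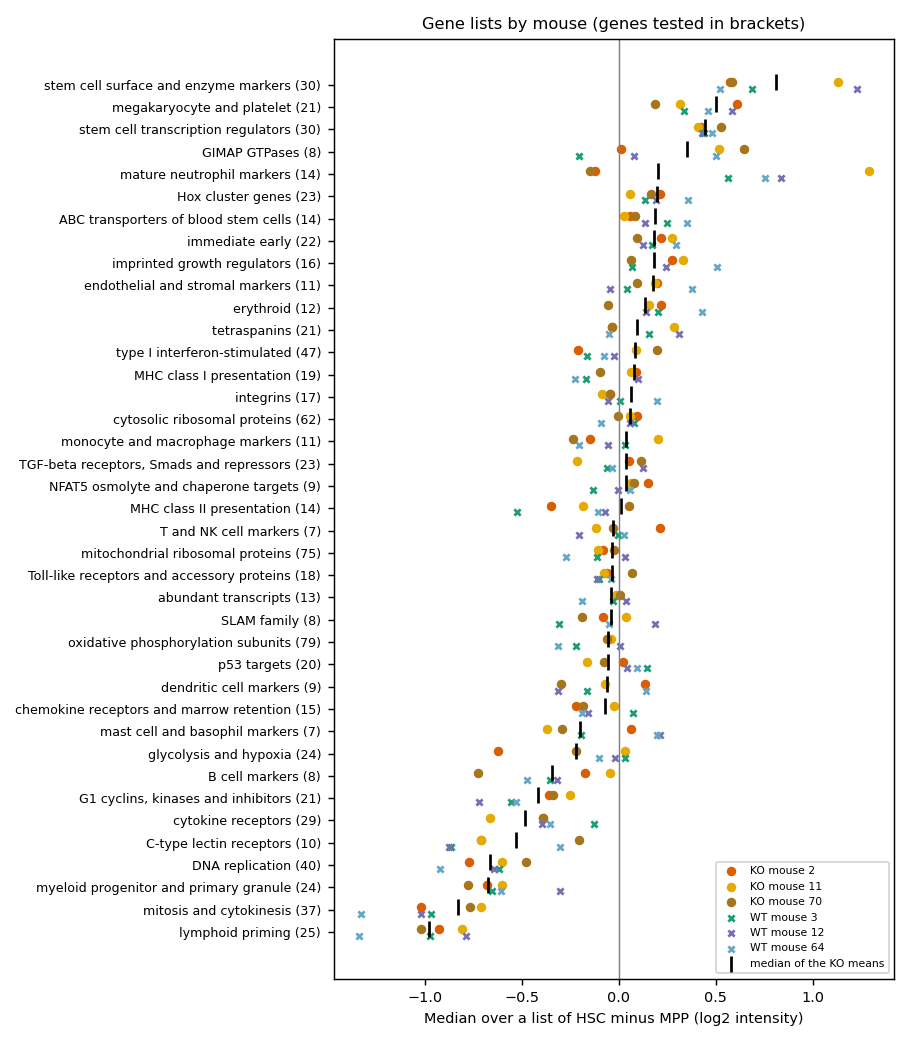
Median log2 difference between HSC and MPP over the tested genes of each list (horizontal axis, 1 row per list), with dots for the 3 knockout mice and crosses for the 3 wild-type mice. The black tick is the median over genes of the mean knockout difference, so it can lie outside the medians of the mice. Lymphoid, mitosis, replication and myeloid lists lie left of 0 in every knockout mouse, from -0.48 to -1.02, and stem cell surface and enzyme markers lie right of 0, from 0.57 to 1.13.

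Signalling and housekeeping lists gave few calls. In the TGF-beta list 2 of 23 genes fell (0.451% of all genes fell), the ligand Tgfb1 (-1.63) and the repressor Tgif2 (-2.08). The list's median was 0.0361. Tgfb1 read 6.73, 7.36 and 7.02 in HSC and 8.67, 8.72 and 8.61 in MPP, a gap that no array closed. Of 47 type I interferon-stimulated genes 0 passed. The median over genes of the mean difference was 0.08 in KO and -0.24 in WT. Medians in single mice were -0.21, 0.09 and 0.20 in KO mice 2, 11 and 70. In WT mice 3, 12 and 64 they were -0.17, -0.02 and -0.08, all within the range of the KO mice. The lowest p was that of Gbp2, at 0.66 (SE 0.14, adjusted p = 0.11 by limma). Of 9 osmolyte and chaperone targets of NFAT5 0 passed and 6 lay above 0, with a median of 0.0357; the amino acid transporter Slc38a2 had the lowest p, at -1.06 (SE 0.41). None of 19 MHC class I presentation genes, 20 p53 targets, 24 glycolysis and hypoxia genes, 15 chemokine receptor and retention genes, 8 GIMAP GTPases, 62 cytosolic and 75 mitochondrial ribosomal protein genes and 79 oxidative phosphorylation genes passed. The last 3 of these lists had medians of 0.0567, -0.0345 and -0.0561, and abundant transcripts, a sign of RNA quality, had a median of -0.0394 with 0 of 13 passing. In all, 36 of the 113 calls belonged to a list and 77 to none.

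Markers of other cell types that the gates could hold were read beside these results, and their part in them was not tested. Of all genes tested 0.773% passed in KO. The mean level of 14 mature neutrophil markers in KO mice 2, 11 and 70 was 6.16, 7.48 and 5.79 in HSC and 6.69, 6.49 and 5.95 in MPP. Among KO arrays the HSC array of mouse 11 was thus highest, with a median marker difference of 1.29, against -0.12 and -0.15 in the other two. In KO 0 of 14 passed. WT mice 3, 12 and 64 read 7.44, 7.37 and 5.91 in HSC and 6.73, 6.65 and 5.24 in MPP. Their median marker differences were 0.563, 0.835 and 0.755. On the KO arrays, to which the values below belong, B cell markers averaged 5.64 to 6.08 in HSC and 6.07 to 6.61 in MPP. Of these 0 of 8 passed, and Ms4a1 lay under the filter. T and NK markers averaged 5.90 to 6.31 and 6.06 to 6.32, with Cd3d, Cd3g, Ncr1 and Klrb1c under the filter and Nkg7 as the single call of 7. Monocyte and macrophage markers averaged 5.85 to 6.03 and 6.13 to 6.38 with Ly6c2 as the single call of 11, and dendritic cell markers 5.65 to 5.88 and 6.20 to 6.29 with Flt3 as the single call of 9 and Xcr1 and Clec9a under the filter. Endothelial and stromal markers averaged 6.10 to 6.34 and 6.05 to 6.14 with Emcn as the single call of 11 and Cdh5 and Kdr under the filter. Mast cell and basophil markers averaged 5.64 to 6.52 and 6.13 to 6.46, and the protease Cpa3 fell by 0.99 (adjusted p = 0.123 by limma without the block). Of 12 erythroid genes 0 passed, with means of 6.86 to 7.23 in HSC and 6.98 to 7.34 in MPP.

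The same difference was measured in the 3 WT mice, which share no array with the KO comparison but enter the same estimate of spread. There 180 genes passed and 2082 had an unadjusted p under 0.05. Both genotypes called 73 genes, which is 64.6% of the KO calls and 40.6% of the WT calls, and all 73 had the same sign. Of the 113 KO calls 109 had the same sign in WT (96.5%, against 66.6% of all genes), 45 of the 47 that rose and 64 of the 66 that fell. For 107 all 3 WT mice went in the KO direction, and for 89 the WT arrays did not overlap in that direction. The median size of the KO calls was 1.90 in KO and 1.53 in WT; that of the WT calls was 1.70 in WT and 1.28 in KO, so each set was larger in the genotype that chose it. Across the 14620 genes, which are not independent and share arrays and probes within a genotype, the differences correlated with r = 0.551 and rho = 0.421. Between single mice r was 0.247 to 0.265 within KO, 0.315 to 0.391 within WT and 0.224 to 0.356 across genotypes.

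**Figure D4:**
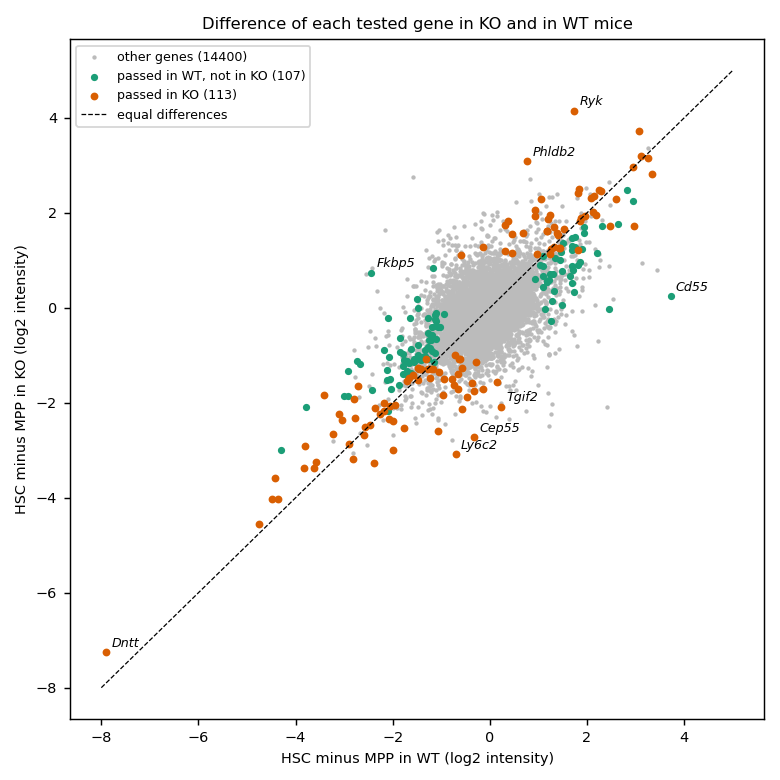
Log2 difference between HSC and MPP in wild-type mice (horizontal axis) and in knockout mice (vertical axis), 1 point per tested gene, with the 113 genes that passed in knockout mice and those that passed in wild-type mice alone in separate colours; the dashed line marks equal differences. Dntt lies farthest from the origin, at -7.90 and -7.26. Phldb2, Cep55, Ly6c2 and Tgif2 lie between -0.71 and 0.77 in wild-type mice, and Cd55 and Fkbp5 at 0.24 and 0.74 in knockout mice.

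Whether the difference between HSC and MPP itself differed with the genotype was tested as KO minus WT, and by limma 0 of 14620 genes passed (0%). The smallest adjusted p was 0.809, and 749 genes had an unadjusted p under 0.05, among them 38 of the 113 KO calls. No alternative tried called a gene for this difference. With 3 mice of each genotype, the genes below are therefore values that did not pass, and a call in KO without one in WT shows no difference between genotypes. Cd55, a regulator of complement on the cell surface, had the largest difference among the 10 genes with the lowest p in either direction, at -3.48 (SE 0.50). It read 7.82 to 8.29 in KO HSC and 7.32, 8.77 and 7.31 in KO MPP, against 9.42, 9.45 and 7.43 in WT HSC and 5.40, 5.45 and 4.31 in WT MPP. The populations were thus apart in WT (3.72) and overlapped in KO (0.24, and -0.14 without mouse 70), and every KO MPP array lay above every WT MPP array. Fkbp5, a co-chaperone of steroid receptors that glucocorticoids induce, stood at 3.18 (SE 0.50), from 0.74 in KO and -2.44 in WT. Its KO HSC arrays read 8.84, 8.89 and 8.90 and its WT HSC arrays 6.50, 6.32 and 7.32, so every KO HSC array lay above every WT HSC array. Its MPP arrays read 7.16 to 8.94 in KO and 8.85 to 9.35 in WT.

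The other genes with the lowest p were Phldb2 (2.31), the Polycomb gene Bmi1 (2.15), D5Ertd579e (2.02) and the kinase gene Ikbke (1.72) upward, and Cep55 (-2.40), the cardiolipin synthase Crls1 (-1.73), the nucleotide sugar transporter Slc35b4 (-1.55) and the ribosome biogenesis factor Utp18 (-1.41) downward. Crls1, Slc35b4 and Utp18 stood at -1.57, -2.13 and -1.75 in KO and passed there, with WT differences of 0.15, -0.58 and -0.33. Bmi1 read 6.57, 6.84 and 8.99 in KO HSC and 5.64, 5.50 and 8.29 in KO MPP, so mouse 70 was far higher in both populations and the KO arrays overlapped. Its KO difference of 0.99 did not pass (adjusted p = 0.0928 by limma), and WT stood at -1.16. The 4 KO calls with the opposite sign in WT were Emcn (1.28 in KO, -0.13 in WT), Ikbke (1.12 and -0.60), Crls1 (-1.57 and 0.15) and Tgif2 (-2.08 and 0.23). Emcn, the sialoprotein endomucin of stem cells and endothelium, read 7.39, 8.50 and 7.75 in KO HSC and 5.97, 7.08 and 6.77 in KO MPP, while WT arrays lay between 7.55 and 8.24 in both populations. The KO MPP arrays of Emcn lay below the 9 other arrays. Tgif2 read 9.59, 8.27 and 9.17 in KO MPP, and 6.78 to 8.07 on the 9 other arrays. Without the block Emcn, Ikbke, Crls1 and Utp18 did not pass in KO (adjusted p = 0.114, 0.281, 0.0791 and 0.0719 by limma).

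**Figure D5:**
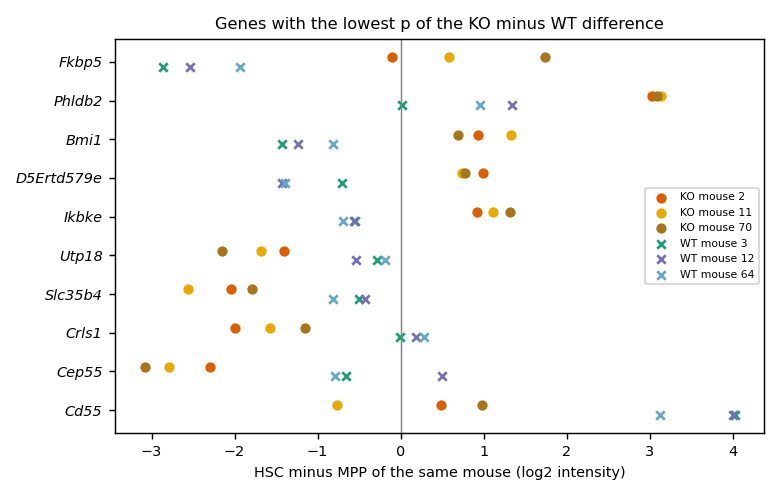
Log2 difference between HSC and MPP of the same mouse (horizontal axis) for the 10 genes with the lowest p of the KO minus WT difference (rows), with dots for knockout and crosses for wild-type mice; none passed over all genes. For Bmi1, D5Ertd579e and Ikbke all knockout mice lie above 0 and all wild-type mice below it.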

How the data were processed

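Gene expression was measured on 1-colour arrays in HSC and MPP of 3 KO and 3 WT mice, 12 arrays in 4 groups of 3. Per the labels' protocols, total RNA was extracted with a Qiagen method and NuGEN kits amplified a picogram amount of it and added the biotin label. The deposited table gives the log2 intensity of each probe set after the authors' RMA normalization, per the submitters' processing notes. These notes list limma too, and give no version. RMA sets all arrays to 1 distribution, so any global shift in RNA between populations would be lost, and it compresses differences of weak transcripts. No scanner file or detection call entered the analysis, and precision is limited by the number of arrays.

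Of 22142 probe sets 19527 had 1 gene symbol, 0 had several and 2615 had none; all 19527 matched the GRCm38.p6 gene table. For the 33 genes with several probe sets the brightest on average stood for the gene, which gave 19494 genes. The 4874 in the lowest 25% of mean value (under 4.96) were set aside and 14620 tested.

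A single model, fitted with limma 3.58.1 and statmod 1.5.0 in R 4.3.3 to all 12 arrays, held the mouse as a fixed block, the HSC minus MPP difference in KO and that in WT, with 4 residual degrees of freedom, and the script was tested on simulated data. Tests were two-sided and moderated, with Benjamini-Hochberg adjustment over all genes, and passing means an adjusted p under 0.05. "Rose" and "fell" mean higher and lower in HSC than in MPP. The labels give the mouse of each array, so HSC and MPP pair by animal; the 2 arrays of a mouse shared little beyond that, with correlations of 0.0345 to 0.0892 between their deviations from the group means across genes. Alternatives were no block, a random block, only the 6 KO arrays, no filter or a 50% filter, the mean of probe sets, a further quantile normalization, trended or robust variances, array weights and leaving out each mouse. Fits without the block that leave out the HSC array of KO mouse 2 or a KO mouse were added after seeing the data.

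The members and the 40 gene lists were chosen with earlier results of these data known, so a list's count is a description and no list was tested. The text names Nfat5, the sort genes, the 15 largest rises and 15 largest falls with arrays that do not overlap, up to 4 members per list, by lowest p, called members of the family lists, and the 5 genes with the lowest p in each direction of KO minus WT; any other gene is marked as chosen after its values were seen. The largest calls in WT are given only where they also meet another part of that rule.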

Additional observations from a re-analysis of the deposited data

Results flagged for a closer look

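For 7 of the genes named by the rule, the 3 KO mice all differed one way between HSC and MPP and the 3 WT mice all the other way; over all genes tested this held for 292, or 2%. The difference itself was tested by limma with Benjamini-Hochberg adjustment over all genes, and none of the 7 passed, the smallest adjusted p being 0.809. KO minus WT was 2.15 for Bmi1, 2.02 for D5Ertd579e, 1.72 for Ikbke, 1.41 for Emcn and 1.29 for the cholesterol exporter Abca1. It was -2.05 for Parp12, an interferon-stimulated gene, and -1.28 for Padi4, the arginine deiminase of neutrophils. Parp12 read 6.78, 7.19 and 6.95 in KO HSC and 7.87, 7.94 and 8.94 in KO MPP, and the reverse order in WT, with 9.04, 8.01 and 7.72 in HSC and 7.51, 7.77 and 7.17 in MPP. For Abca1 1 array stood far from its group, the KO HSC array of mouse 11 at 9.38, against 6.76 and 6.34 in the other two.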

How the results depend on the processing

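All 113 calls kept their direction in every alternative in which they were tested, but most alternatives could not have reversed them. Removing the block or making it random, changing the filter and using trended or robust variances leave the difference of a gene as it is. Leaving out a KO mouse cannot reverse it either, since all KO mice of each called gene differed the same way. The count of calls in KO was 184 without the block that pairs the arrays of a mouse (76 higher, 108 lower), 250 with the mouse as a random block (108 higher, 142 lower) and 1 with only the 6 KO arrays (0 higher, 1 lower), a fit with 2 residual degrees of freedom. It ran from 1 to 49 when a mouse was left out (0 to 22 higher, 1 to 27 lower). Unpaired fits gave 106 when the HSC array of KO mouse 2 was dropped, and 57 (23 higher, 34 lower), 83 (30 higher) and 86 (28 higher) without KO mice 2, 11 and 70. The other settings gave 93 to 114. The WT count of 180 was 302 without the block, 362 with the random block and 2 to 161 when a mouse was left out, and, in unpaired fits, 347 when the HSC array of KO mouse 2 was dropped and 297 when KO mouse 2 was. KO minus WT gave 0 calls throughout by limma. Without the block 21 of the 113 genes did not pass. Cd55 in KO turned from 0.24 to -0.14 without mouse 70, with and without the block, and was 0.74 without mouse 11. For single genes and lists 3942 values under an alternative kept their side of the threshold or moved by less than the spread, 364 fell short of the threshold, 52 newly passed, 83 moved and these 2 reversed. Signal over background was not assessed, so values under 4.96 have no reliable order.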
